A study of Mus musculus with 2 samples.

Results

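Gene-near intergenic transcripts were defined here as nascent transcripts that the deposited annotation calls intergenic, whose centre lay under 10000 bp from the nearest annotated gene start, and whose detailed annotation named no repeat element. The rule found 723 of 43122 transcripts in control bone marrow-derived macrophages (BMDMs) and 820 of 51365 in IL-4-treated BMDMs, 1543 of 94487 in all. The rule used position and annotation only, and no score. The cells came from wild-type mice aged 8 to 12 weeks. Bone marrow cells were differentiated for 6 days in L929 supernatant, a source of the macrophage growth factor M-CSF. One group was left without IL-4 and the other received IL-4 at 20 ng/ml for 1 hr. Nascent RNA was measured with GRO-seq, a global run-on method in which polymerases already engaged on DNA extend their RNA with a bromine-labelled nucleotide. The 2 run-on reactions of each condition were pooled into 1 library, so no replicate spread exists and no difference between the conditions could be tested.

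As background, polymerases rarely stop at the annotated end of a gene, and nascent RNA continues downstream until termination releases it. Active promoters also fire in the antisense direction, and enhancers make short transcripts from both strands. Genes for microRNAs and small nuclear RNAs are processed from primary transcripts that reach well beyond the small mature product. A transcript outside the gene models can therefore belong to any of these classes, and the annotation alone does not say which.

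The highest-scoring member of each library lay on a small RNA gene that the deposited annotation did not name, and both sequences are shown because they identify those transcripts. The first sequence is Gm24265, an snRNA gene of 141 bases at chr5:115489459-115489599 on the plus strand (mm10). The second is Rnu3a, a snoRNA gene of 214 bases at chr10:40258467-40258680 on the plus strand, whose product acts in ribosomal RNA processing. Capitals mark the bases covered by the called transcripts, and both sequences were read from the GENCODE transcripts.
Gm24265: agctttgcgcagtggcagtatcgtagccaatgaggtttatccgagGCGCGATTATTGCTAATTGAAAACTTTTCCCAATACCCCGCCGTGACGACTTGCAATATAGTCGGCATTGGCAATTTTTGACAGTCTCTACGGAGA
Rnu3a: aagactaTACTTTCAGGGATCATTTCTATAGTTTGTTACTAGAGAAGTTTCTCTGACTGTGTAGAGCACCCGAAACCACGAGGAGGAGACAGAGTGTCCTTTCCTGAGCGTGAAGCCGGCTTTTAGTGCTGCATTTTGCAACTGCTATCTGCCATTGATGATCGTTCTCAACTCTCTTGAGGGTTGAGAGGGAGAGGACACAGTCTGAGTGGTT
Small RNA genes of these families have near-identical copies elsewhere in the genome, and their values are uncertain because aligned reads may be divided among the copies.

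A further group of gene-near transcripts surrounded microRNA genes, and the mature microRNAs that the results below return to are shown with the seed, bases 2 to 8, in capitals. They were read from RefSeq (GRCm38.p6), which held 26 of the 28 microRNA symbols next to these transcripts.
miR-21a-5p: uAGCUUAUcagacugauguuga
miR-23a-3p: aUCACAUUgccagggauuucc
miR-27a-3p: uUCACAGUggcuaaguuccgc
miR-24-3p: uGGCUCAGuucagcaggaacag
miR-142a-3p: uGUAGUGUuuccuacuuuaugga
miR-146a-5p: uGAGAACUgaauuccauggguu
miR-34a-5p: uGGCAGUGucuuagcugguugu
let-7a-5p: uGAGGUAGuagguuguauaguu
let-7d-5p: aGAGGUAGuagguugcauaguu
The let-7 sequences share 1 seed, GAGGUAG, and each of the others has a seed of its own.

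The measurement is the score that HOMER gave each called transcript, printed to 1 decimal. It is used here as a relative level, and neither its scaling nor the sequencing depth is known. Gene-near transcripts made up 1.68% of the control library (1.56 to 1.80) and 1.60% of the one treated with IL-4 (1.49 to 1.71). Ranges after a share are 95% Wilson intervals and cover counting error only. Their median score was 0.2 in both libraries, with highest scores of 15.5 in control and 36.0 after IL-4. Scores of 0.2 or less made up 54.5% of the control members and 73.3% of the IL-4 members, so most lay near the lowest printed value. The control members had a median length of 235 bp and the IL-4 members of 337 bp, against 227 and 312 bp over all transcripts. Transcripts after IL-4 were thus called longer and with lower scores across the whole library. All 8 macrophage marker genes had called transcripts in both libraries, and 4 (control) and 5 (IL-4) of 19 marker genes of other marrow cell types did. In bulk cultures, a change in the share of a cell type and a change in RNA per cell cannot be told apart.

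Most gene-near transcripts lay before the start of their nearest gene, on either strand, which the rule itself favours. Intergenic transcripts lie outside the gene models of the deposited annotation. A position past the end therefore qualifies only where the gene ends within 10000 bp of its start. Of the control members, 31.4% lay upstream on the gene's own strand (28.1 to 34.9) and 27.0% upstream on the opposite strand (23.9 to 30.3). The IL-4 members showed 31.7% (28.6 to 35) and 26.3% (23.4 to 29.5). Positions past the end on the same strand held 11.3% of control members (9.23 to 13.9) and 13.4% of IL-4 members (11.3 to 15.9). These intervals overlapped between the libraries, as they did for every other position. The nearest members lay 1003 bp (Tnrc18) and 1001 bp (Cfl1) from a start, since the annotation files transcripts at a start under a separate promoter class. Those closest to the distance limit were at 9989 bp (Trim56, control, score 0.2) and 9993 bp (Rreb1, IL-4, score 0.3). Just outside it were transcripts at 10043 bp (Prr18) and 10015 bp (Reep3), both with a score of 0.2.

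**Figure D1:**
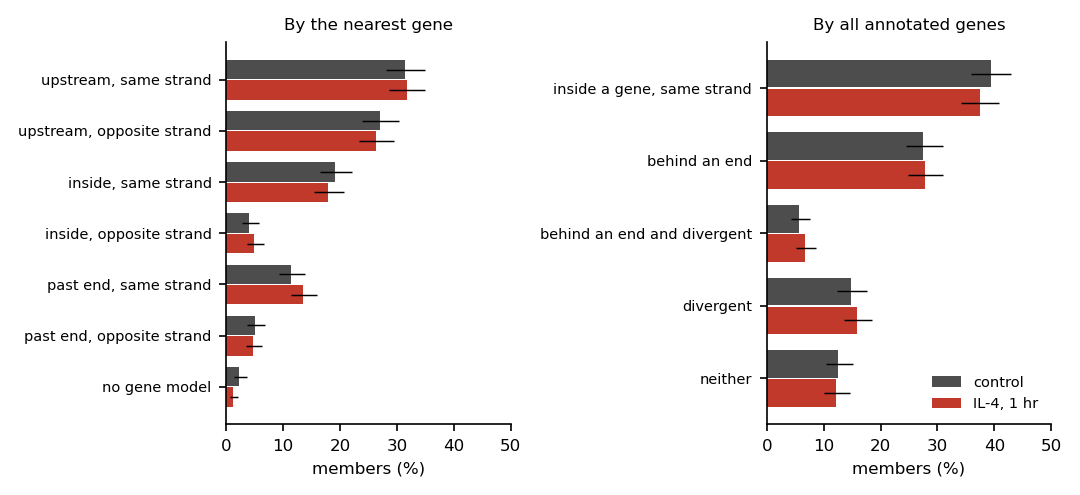
Share of gene-near intergenic transcripts in each position, in percent of the 723 control (grey) and 820 IL-4 (red) members, with 95% Wilson intervals for counting error. The left panel places them by the nearest gene and the right panel by all genes of GENCODE M21, and in each class the intervals of both libraries overlap.

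Intergenic by the deposited annotation was not intergenic by a fuller one. On GENCODE M21, 285 control members (39.4%, 35.9 to 43.0) and 307 IL-4 members (37.4%, 34.2 to 40.8) lay inside a gene on their own strand. In control, 207 of these were inside a protein-coding gene and 76 inside a long or other noncoding gene. The gene was the nearest gene itself for 138 control and 147 IL-4 members, through transcript models that start earlier or end later than the one used in the files. A further 240 control and 283 IL-4 members lay outside every gene of their own strand and within 10000 bp behind a gene end on the same strand. The median gap to that end was 1998 bp (control) and 1692 bp (IL-4), and 50% and 57.2% of them lay within 2000 bp of it. In control, only 61 of these 240 followed the end of their own nearest gene, and 179 followed another gene, so the name of the nearest gene often did not name the gene whose end the transcript followed. CpG islands overlapped the centre of 17.4% of control members and 16.2% of IL-4 members, against 4.46% and 4.38% of all transcripts and 11.2% and 9.69% of intergenic transcripts farther than 10000 bp from a start. Transcripts that name a repeat are left out of the members and of the distal transcripts but kept among all transcripts. Only the distal shares therefore have a like base.

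Start windows of RefSeq, which reach from 250 bases before to 50 bases after a gene start, overlapped 39 control members (5.39%, 3.97 to 7.29) and 51 IL-4 members (6.22%, 4.76 to 8.09). For distal intergenic transcripts the shares were 5.04% and 5.91%. An example called in both libraries was filed under Mir193a, 7635 bp from the start of that microRNA gene, but lay head to head with the noncoding gene Gm11205. It scored 0.8 in control (chr11:79704211-79704458, minus strand) and 0.7 after IL-4 (chr11:79704152-79704496). Its first base was 112 (control) and 74 (IL-4) bases upstream of the Gm11205 start on the other strand. The 250 bases before that start (RefSeq, GRCm38.p6, chr11:79704320-79704569, plus strand) are printed with the 139 bases covered in both libraries in capitals, because they hold the sequence from which this antisense transcript was read.
Gm11205: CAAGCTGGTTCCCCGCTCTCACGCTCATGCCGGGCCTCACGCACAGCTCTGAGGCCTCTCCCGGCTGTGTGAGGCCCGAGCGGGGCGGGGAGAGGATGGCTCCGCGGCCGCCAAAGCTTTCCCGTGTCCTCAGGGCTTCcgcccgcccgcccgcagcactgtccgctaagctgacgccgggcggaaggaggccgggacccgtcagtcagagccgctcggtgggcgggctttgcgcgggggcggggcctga

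Opposite-strand pairs made up a larger share of the members than of distal or of all transcripts in both libraries. A member counted as paired when a transcript on the other strand began within 500 bp of its first base. This held for 109 of 723 control members (15.1%, 12.7 to 17.9) and 187 of 820 IL-4 members (22.8%, 20.1 to 25.8). Among distal intergenic transcripts the shares were 9.17% (7.67 to 10.9) and 9.83% (8.38 to 11.5), and among all transcripts 9.45% and 11.2%. With 1 library per condition, the larger share after IL-4 has no replicate check. Transcripts were also longer and more numerous in that library, and the part of this in the larger share was not tested.

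Many gene-near transcripts were called in only 1 library. A counterpart was a transcript of any class overlapping by at least 1 bp on the same strand. In control, 302 of 723 members had none (41.8%, 38.2 to 45.4), against 37.4% of all control transcripts. After IL-4, 428 of 820 had none (52.2%, 48.8 to 55.6), against 48.1% of all IL-4 transcripts. Both shares were a little above the background of their library and below those of distal intergenic transcripts, 48.4% and 55.8%. With a score of at least 0.3, the order of the libraries turned: 24.3% of 329 control members and 17.8% of 219 IL-4 members lacked a counterpart. It turned for all transcripts alike, with 22.5% and 19.7%, and the members' intervals (20 to 29.2 and 13.3 to 23.4) held these background values.

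**Figure D2:**
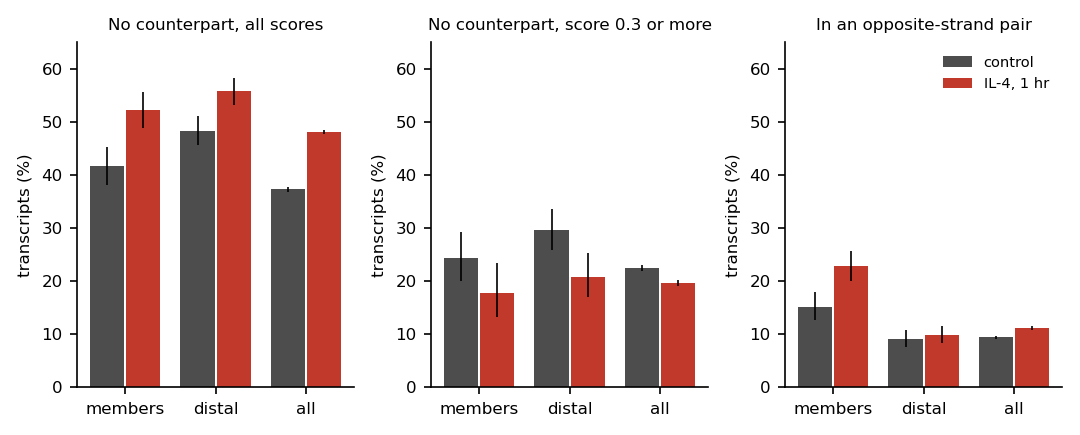
Percent of transcripts without a same-strand counterpart in the other library (left, all scores; middle, score of 0.3 or more) and percent in an opposite-strand pair (right), for members, distal intergenic transcripts and all transcripts, control in grey and IL-4 in red, with 95% Wilson intervals. Among all scores, 41.8% of control and 52.2% of IL-4 members lacked a counterpart, and from a score of 0.3 the order turned to 24.3% and 17.8%, as it did for all transcripts (22.5% and 19.7%).

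Overlapping transcripts of both libraries were joined into loci, and the highest score of each library was taken as the level of the locus. For each locus the IL-4 score was divided by the control score and taken to log2, and the median of all 26146 loci with both values, -0.32, was subtracted. This is called the centred ratio below, and a locus at least 2-fold apart on it was counted as called. Gene-near transcripts formed 1190 loci, of which 463 had scores from both conditions, 301 from control alone and 426 from IL-4 alone. Of the 463 loci, 34 (7.34%) were called higher after IL-4, against 10.1% of all loci, and 57 (12.3%) were called lower, against 11.6% of all loci. The members' share was thus under the background for higher loci and near it for lower loci, and their median centred ratio was -0.09. Without centring the counts were 27 higher and 141 lower (5.83% and 30.5%, against 8.31% and 27.9% of all loci), so the balance of the directions depends on the scaling. Because a score of 0.2 can stand for anything from 0.15 to 0.25, calls were also made over the whole rounding range: 8 loci (1.73%) remained higher and 9 (1.94%) lower, against 3.68% and 3.2% of all loci. In 235 of the 463 loci the rounding range held no difference. In 324 loci both highest scores came from members, and 30 of these were called higher and 36 lower. In another 129 loci 1 of the scores came from an overlapping transcript outside the rule, usually one whose centre fell on a repeat, with 3 higher and 19 lower.

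**Figure D3:**
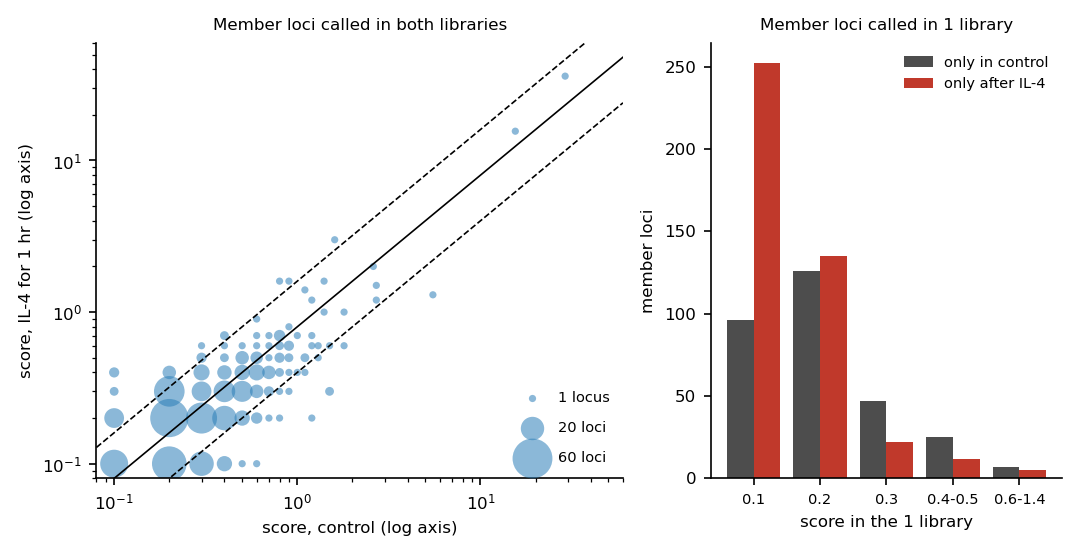
Scores of the 463 gene-near loci with values in both libraries (left, log axes, circle area growing with the number of loci at each pair of scores) and the scores of loci called in 1 library (right). The solid line is the median ratio over all loci and the dashed lines are 2-fold from it. Most loci lie at scores under 1 between the dashed lines, and 252 of the 426 loci called only after IL-4 have a score of 0.1.

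Loci called in 1 library followed the same split by score. A score of 0.1 was held by 96 of the 301 control-only loci and by 252 of the 426 IL-4-only loci. From 0.3 to 1.4 the control-only loci were more numerous, 47 against 22 at 0.3 and 25 against 12 at 0.4 to 0.5. At 0.6 or above the counts were 7 and 5. Loci in CpG islands were most often shared, with 100 of 165 (60.6%) called in both libraries against 363 of 1025 (35.4%) elsewhere. By context, divergent loci begin upstream of a protein-coding gene on the other strand, within 10000 bp of its start, and follow no gene end. They had 11 of 69 called higher (15.9%) and 3 lower (4.35%), against 10.1% and 11.6% of all loci. Loci with such a start that also follow a gene end had 1 of 27 higher (3.7%) and 3 lower (11.1%). Over all members with such a start, outside genes of their own strand, the median gap to it was 3102 bp (control) and 3367 bp (IL-4). Antisense below means the strand opposite to the named gene, at any distance under 10000 bp. Loci inside a gene on its strand had 10 of 197 higher (5.08%) and 30 lower (15.2%). Placed by the nearest gene instead, loci upstream on the opposite strand had 14 of 124 higher (11.3%) and 12 lower (9.68%). No test was made of these differences.

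Of 33 listed IL-4 response genes, 6 were next to a member locus. All 6 loci were called in the IL-4 library alone, where 426 of all 1190 loci were. The gene lists here and below were drawn up with earlier results of these data known, so their counts are descriptions only. The locus of Socs1, a feedback inhibitor of cytokine receptor signalling, scored 1.2 after IL-4 and was not called in control. It ran for 1803 bp (chr16:10780319-10782121, minus strand) and began 119 bp behind the end of the gene. The gene's own transcripts reached 0.3 in control and 2.5 with IL-4. The other 5 loci scored 0.1 to 0.3, within reach of the calling limit. An antisense transcript inside Egr2, an immediate early transcription factor gene, scored 0.3 (chr10:67536570-67537134), and the gene itself was called only after IL-4 at 0.4. Transcripts 2090 bp behind Clec10a, a galactose-type lectin receptor, and upstream of Ptgs1, a cyclooxygenase, scored 0.2 each. The Ptgs1 locus was centred 7545 bp from the start and lay inside the noncoding gene Gm13431 on the same strand. Antisense transcripts 2376 bp upstream of Bcl6, a transcriptional repressor, and 8370 bp upstream of Ier3, an early response gene, scored 0.1 each. The genes' own scores went from 0.3 to 0.6 for Ptgs1 and from 0.8 to 3.1 for Ier3, while the printed scores of Clec10a (1.6 and 1.5) and Bcl6 (1.7 and 1.4) were not higher after IL-4. Centred on the median of all genes, the log2 ratios of Clec10a and Bcl6 were 0.29 and 0.1, under 2-fold.

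Of 44 macrophage function genes, 6 had member loci. Control alone called 8 of their 10 loci, both libraries 1 and IL-4 alone 1, against 301, 463 and 426 of all 1190 member loci. Ctsd and Grn held 5 of the 8, and 7 of the 8 scored 0.2 to 0.3, near the calling limit. Lyz2 encodes lysozyme, and the locus behind its end (chr10:117275415-117276457, minus strand, gap 874 bp) scored 1.2 in control and 0.2 after IL-4. Its centred ratio was -2.26, and the rounding range ran from -2.74 to -1.88. Its highest scores in both libraries belonged to transcripts whose centre named a repeat, and the member itself scored 0.6 in control (chr10:117276072-117276457). The Lyz2 gene's transcripts scored 2.4 and 1.9, and reads of Lyz2 may be shared with its close paralogue Lyz1 beside it. Grn, the progranulin gene, had antisense loci 5688 bp upstream at 1.1 (chr11:102424490-102424627) and 1085 bp upstream at 0.3 in control, and none called after IL-4. Ctsd, the lysosomal protease cathepsin D, had 3 upstream loci in control at 0.2 to 0.3 and none after IL-4, and its own transcripts reached 2.8 in control and 0.4 with IL-4. Fth1 (ferritin heavy chain) and Ctss (cathepsin S) each had 1 control-only locus at 0.2. Psap, which encodes the precursor of lysosomal saposins, had an upstream locus called only after IL-4 at 0.1.

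**Figure D4:**
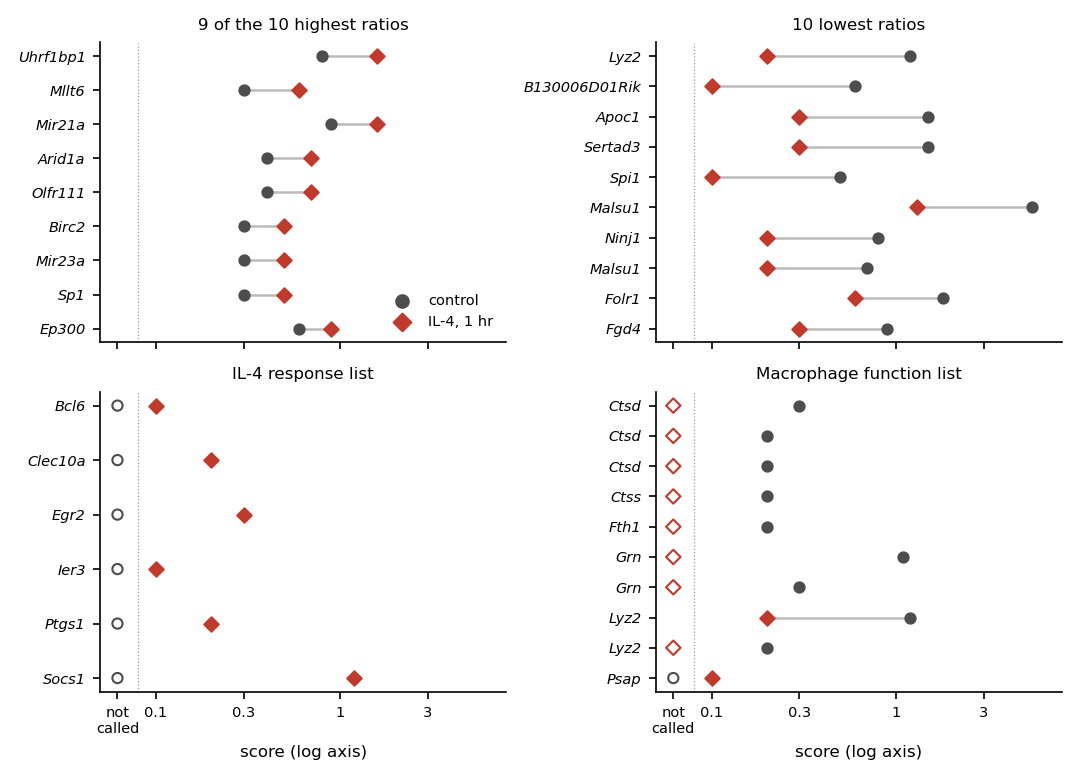
Scores (log axis) in control (grey circles) and after IL-4 (red diamonds) of 9 of the 10 loci with the highest and all 10 with the lowest centred ratios among those reaching 0.5, and of the loci next to IL-4 response and macrophage function genes. Open symbols left of the dotted line were not called, which holds for control at all 6 IL-4 response loci and for IL-4 at 8 of 10 macrophage function loci. Both lists were drawn up with earlier results of these data known.

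Several of the 10 loci with the lowest centred ratios, among those reaching a score of 0.5, carried the name of a neighbour of the gene whose strand and end they followed. A transcript filed under Apoc1 (chr7:19694408-19695455, minus strand) lay 654 bp behind the end of Apoe, a lipid carrier that macrophages secrete. It scored 1.5 and 0.3, with a centred ratio of -2.0 (-2.31 to -1.73 over the rounding range), and the IL-4 copy was annotated to the Apoe end rather than as intergenic. Transcripts filed under Malsu1 lay inside a GENCODE model of Gpnmb, a transmembrane glycoprotein of phagocytes. The locus at chr6:49070202-49070450 scored 5.5 in control and 1.3 after IL-4 (-1.76, -1.83 to -1.69), and that at chr6:49064010-49064535 scored 0.7 and 0.2 (-1.49). Both control copies named a repeat and so were not members, whereas the IL-4 copies were. Sertad3, in name, gave a locus whose control transcript began 1172 bp behind Blvrb, a biliverdin reductase gene, with scores of 1.5 and 0.3 (-2.0), the IL-4 copy naming a repeat. The locus whose control transcript began 886 bp behind Ninj1, a membrane rupture protein gene, scored 0.8 and 0.2 (-1.68), again with an IL-4 copy that named a repeat, and the gene's own transcripts scored 1.4 and 0.7.

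Spi1 encodes PU.1, the transcription factor on which macrophage identity depends, and its locus held a series of gene-near transcripts with lower scores or no call after IL-4. The 8 loci lay on the plus strand over chr2:91086951-91095066, at 1814 to 9701 bp before the start used in the files and inside a longer GENCODE model of Spi1. In control they scored 0.1, 0.5, 0.3, 0.1, 0.4, 0.2, 0.3 and 0.2 from the farthest to the nearest. After IL-4 only 3 were called, each at 0.1, and 301 of all 1190 member loci were likewise called in control alone. The locus at chr2:91087475-91088270 had a centred ratio of -2.0 (-3.14 to -1.26), and its neighbour of 0.3 and 0.1 had -1.26 (-2.49 to -0.42), a range that includes changes under 2-fold. The transcripts of the gene itself scored 0.9 and 0.6, which is under 2-fold.

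**Figure D5:**
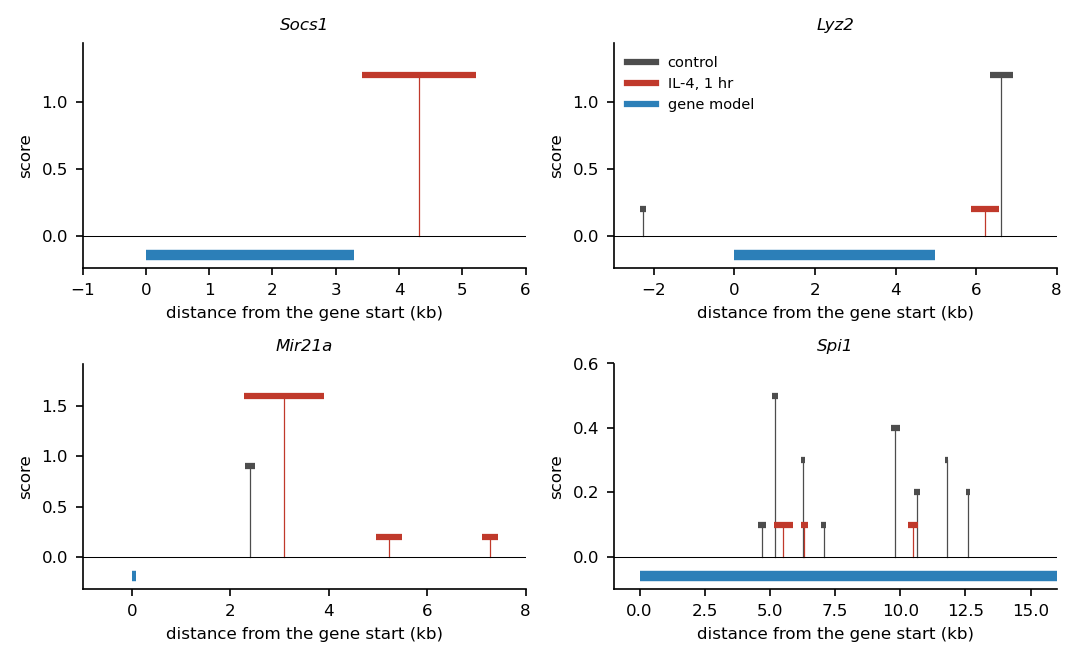
Highest-scoring transcript of each library in the member loci on the gene's strand at 4 genes, by distance from the GENCODE gene start in kb (positive in the direction of transcription) and by score, control in grey and IL-4 in red, with the GENCODE gene model in blue, which for Spi1 continues past the panel. The Socs1 transcript begins 119 bp behind the gene end and appears only after IL-4, and the Spi1 series is taller in control than after IL-4.

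Among the other transcription factors, 14 of 47 listed genes had 35 member loci, the Spi1 series included. Both libraries called 17 of them, control alone 9 and IL-4 alone 9, against 463, 301 and 426 of all 1190 member loci. Of the 17, 3 were higher and 3 lower, against 34 and 57 of the 463 shared member loci. Maf, a transcription factor gene, had the second highest control member, with 2.7 against 1.2 after IL-4 (chr8:115698483-115698838, minus strand, -0.85), where the IL-4 copy named a repeat. That transcript lies inside a longer GENCODE model of Maf, where weaker neighbours scored 0.3 and 0.1, 0.2 and 0.3, and 0.1 and 0.2 in the same order. An antisense transcript that began 180 bp before the GENCODE start of Fosl2, an AP-1 subunit gene, scored 0.2 and 0.4 (1.32, 0.81 to 1.91). The antisense transcript before Junb scored 0.6 and 0.3 (-0.68), and the loci of Zeb2 and Id2, most of them on the gene's own strand, had printed scores within 0.1 of each other in the libraries.

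Loci next to inflammatory genes gave 1 call of 2-fold, which the rounding range did not keep. Of 55 genes, 6 had member loci, 9 in all. Both libraries called 5 of these, control alone 1 and IL-4 alone 3, against 463, 301 and 426 of all 1190 member loci. The 1 call of 2-fold was lower, against 57 of the 463 shared member loci. An antisense transcript upstream of Ccl3, a chemokine gene, was the fifth highest control member at 1.8, against 1.0 after IL-4 (chr11:83651842-83651994, plus strand, -0.53). That of Tlr6 scored 0.6 and 0.3 (-0.68), its IL-4 copy being annotated to the promoter. The locus inside a GENCODE model of Nfkbid, which encodes a regulator of NF-kB, scored 0.5 and 0.2, exactly 2-fold lower (-1.0, -1.55 to -0.53), and its IL-4 copy was also annotated to the promoter. Tlr9 had a transcript behind its end only in control at 0.3. Another, past its end on the opposite strand and 1328 bp behind Alas1, was called only after IL-4 at 0.2. The Tlr9 gene's own transcripts scored 0.6 and 0.1. Around Zfp36, which encodes a destabiliser of cytokine mRNAs, 3 loci scored 0.2 wherever they were called. Those on the plus strand lay inside the antisense gene Gm44710. Fcgr1, an IgG receptor gene, had an upstream locus at 0.2 only after IL-4. The interferon-stimulated genes, 29 listed, had 1 member locus, behind Ifitm2 and inside Gm45717 on the same strand, at 0.2 and 0.1.

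Genes for microRNAs were next to 72 member loci over 28 symbols. Both libraries called 28 of these loci, control alone 13 and IL-4 alone 31, and 4 were called higher and 0 lower, against 34 and 57 of the 463 shared member loci. By printed scores, before centring, 8 of the 28 were higher after IL-4 and 15 lower, so this direction depends on the scaling. The locus behind Mir21a (chr11:86580255-86582839, minus strand) scored 0.9 and 1.6, with a centred ratio of 1.15 (1.03 to 1.28). It began 1228 bp past the hairpin and 1026 bp behind Vmp1, the gene that shares its strand and end with the microRNA. The highest scores came from transcripts that named a repeat, and the members within the locus scored 0.6 in control and 1.1 after IL-4. Transcripts assigned to Mir21a outside the intergenic class scored 4.9 and 10.6. Farther along the same strand, 2 more loci were called only after IL-4 at 0.2 each.

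The cluster of Mir23a, whose primary transcript also carries miR-27a and miR-24, had 6 member loci. On its own strand the 4 loci scored 0.9 and 0.8, none and 0.5, 0.3 and 0.5, and 0.6 and 0.4 in control and after IL-4, in order toward the hairpin. The third of these was called higher (1.06, 0.68 to 1.46). Transcripts assigned to Mir23a outside the intergenic class scored 0.8 and 0.3, lower after IL-4 (-1.04). An antisense locus upstream of Mir142, a microRNA of blood cells, scored 0.1 and 0.3 (1.91, 1.06 to 3.13). The antisense locus beside it scored 0.2 and 0.1 (-0.68). On the strand of Mir142, a locus scored 0.3 and 0.4 (0.74) and another was called only in control, at 0.1. A locus before Mirlet7a-1 scored 0.2 and 0.4 (1.32), while a stronger one beside it scored 0.8 and 0.5 (-0.36). A locus past Mirlet7d was called only after IL-4, at 0.1. Around Mir146, which targets Toll-like receptor signalling, 8 loci on its strand scored 0.1 to 0.5. Control alone called 4 of these, both libraries 2 and IL-4 alone 2. Outside the intergenic class, transcripts assigned to Mir146 scored 0.5 and 0.1, and those assigned to Mir142 2.8 and 2.2. The 6 loci leading to Mir34a lay between 0.1 and 0.4. Of the 6 Mir1932 loci, which reached 1.4 in control, 4 lay inside a GENCODE model of Rnf213, a ubiquitin ligase gene, on its strand.

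The small RNA genes printed above gave the strongest levels. The transcript on Gm24265, filed under Sirt4, scored 15.5 in control and 15.6 after IL-4 (centred ratio 0.33). The transcript on Rnu3a, filed under Gtf3c6, scored 29.0 and 36.0 (0.63). Its control copy was shorter and was annotated to a promoter, so only the IL-4 copy was a member. Without the 6 loci on small RNA genes, 33 of 457 loci were called higher (7.22%) and 56 lower (12.3%), against 10.1% and 11.5% of all loci.

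Other strong members lay behind the ends of genes, inside other genes or upstream of a gene on the opposite strand. The locus that began 1087 bp behind Mcl1, an anti-apoptotic gene, scored 2.7 and 1.5 (-0.53), and the gene itself 2.8 and 1.1. That behind Rap2b, a small GTPase gene, scored 2.6 and 2.0 (-0.06), with an IL-4 copy that named a repeat. A transcript filed under Folr1 lay inside Anapc15, a subunit gene of the anaphase-promoting complex, and scored 1.8 and 0.6 (-1.26, -1.43 to -1.11). Loci filed under Mllt6 on the noncoding gene Gm11613 did not move together, and scored 1.1 and 1.4 (0.67), 0.3 and 0.6 (1.32), 1.1 and 0.5 (-0.82), and 1.0 and 0.4 (-1.0). A short antisense transcript of 59 bp that began 3314 bp before Uhrf1bp1 scored 0.8 and 1.6 (1.32, 1.19 to 1.46). Antisense transcripts whose IL-4 copies began 110 bp before Birc2, an inhibitor of apoptosis, and 6466 bp before Sp1, a transcription factor, each scored 0.3 and 0.5 (1.06).

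The highest-scoring members with no counterpart were led in control by a transcript at 1.4 that is filed under Mrpl27 and lies 1258 bp behind Xylt2 (chr11:94662449-94662593, minus strand). It was followed by the Grn antisense transcript at 1.1 and by an antisense transcript before Dusp6, a MAP kinase phosphatase gene, at 0.9. After IL-4 the order began with Socs1 at 1.2, then antisense transcripts before Dyrk1a, a kinase gene, at 0.8 and before Atp2b1, a calcium pump gene, at 0.6. Upstream transcripts on the gene's strand at Pla2g15, a lysosomal phospholipase gene, and Csf3r, the G-CSF receptor gene, scored 0.6 and 0.4. Csf3r's own transcripts scored 3.9 and 9.4, and those of Pla2g15 2.0 and 3.3. The transcripts of Dyrk1a scored 5.8 and 2.3, and those of Atp2b1 3.3 and 3.5. Csk, a kinase gene, had 5 loci, all called only after IL-4, as were 426 of all 1190 member loci. Tnrc18 had the most loci of any gene, 11, of which 8 were called in both.

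Set beside the transcripts of the nearest gene, 385 of the 463 loci had values for both. The gene's value was the highest score outside the intergenic class under its name, and transcripts of the locus itself were not left out. At Gtf3c6 the control value of locus and gene was the same transcript, 29.0, so the sides are not always separate measurements. A locus and its gene were both called higher in 1 case and both lower in 9, with 1 case of opposite calls. Over the series 684 of 8573 genes were called higher and 722 lower, and whether locus and gene moved together more often than these rates give was not tested. The locus alone was called higher in 22 cases and lower in 40, and the gene alone was called higher in 15 and lower in 41. Across these loci Pearson's r of the centred ratios was 0.153. It is given as a description, since loci share genes, libraries and rounding, and at times a transcript with their gene.

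The letters of the STAT6 consensus, TTC and GAA 4 bases apart, were searched in the RefSeq start windows. This pattern reads the same on both strands, and other spacings were not searched. The letters occurred in 6.95% of all 32851 windows, and in at least 1 window of 8.01% of genes. The shares were 6.49% of 262 genes next to shared loci, 7.29% of 192 next to control-only loci and 7.06% of 255 next to IL-4-only loci. None of the windows of Socs1, Egr2, Bcl6, Ier3 and Ptgs1 held these letters. Of 5 enhancer RNA assays named by the study within 10000 bp of a gene, placed by their names alone, 1 had a called transcript within 1000 bp in control (Clec4d, 0.3, not a member) and 1 after IL-4 (the Fcgr1 member, 0.2).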

How the data were processed

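GRO-seq reads of both libraries were processed by the authors, whose notes name BWA 0.7.10, SAMtools 0.1.19, HOMER 4.2 and mm10. The deposited values are a HOMER score per called transcript, with position, strand, annotation and nearest gene; the authors called transcripts in each library separately. Depth and scaling of the score are not given in the sources used here, so no count test and no depth interval were possible. HOMER annotates the centre of a region, so 2 overlapping transcripts can differ in class.

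Members were selected by the stated rule, with no filter on score. Loci, counterparts and pairs were computed with Python 3.11.15, pandas 2.3.3, numpy 2.4.6 and scipy 1.17.1, in scripts tested on simulated data. The side of the nearest gene was taken from GENCODE M21 models (mm10), matched for 707 of 723 and 811 of 820 members, because the sign of the deposited distance followed the model in only 250 of 540 and 309 of 624 cases. With 1 library per condition, loci were called at 2-fold and no test was made. Named loci were the 10 highest-scoring members and the 10 highest without a counterpart in each library, the 10 highest and 10 lowest ratios among loci reaching 0.5, and members next to listed genes, apart from a few chosen after their values were seen. Members and lists were chosen with earlier results of these data known. Alternatives are given in the closing section. Some loci are not reported here.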

Additional observations from a re-analysis of the deposited data

How the results depend on the processing

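No paired analysis was possible because each condition had 1 library. No replicate could be left out for the same reason. The motif search around the members themselves and the placement of the enhancer assays by primer sequence were not run; start windows and assay names were used instead, both chosen after seeing the data, as were the 2 settings on ties and on small RNA genes below. Under the alternatives 24 values stayed within their counting interval or within 1.5 times, 42 did not, and the cause was not tested unless stated. Member numbers (723 in control, 820 after IL-4) depended by construction on the rule: 1100 and 1236 with repeats kept, 436 and 473 under 5000 bp, 329 and 219 with a score of at least 0.3, and 385 and 440 without overlap of a GENCODE gene on either strand. The share without a counterpart (41.8% and 52.2%) became 47.9% and 67.0% when the overlap had to reach 50% of the member, 32.6% and 42.8% when a gap of 500 bp was allowed, 24.3% and 17.8% at a score of at least 0.3, and 47.8% for IL-4 under 5000 bp. Without centring, and equally when centring on promoter loci, whose median ratio was 0, the 34 higher and 57 lower loci became 27 and 141. These were 5.83% and 30.5%, against 8.31% and 27.9% of all loci, so the excess of lower loci rests on the scaling. With the sum of score times length the counts became 83 and 74 (17.9% and 16%, against 18.8% and 16.8% of all loci). Over the rounding range they became 8 and 9 (1.73% and 1.94%, against 3.68% and 3.2%). With scores of at least 0.3 in both libraries they became 9 and 10 of 169 (5.33% and 5.92%, against 7.32% and 6.14%). Under 5000 bp they became 21 and 32 of 290 (7.24% and 11%, against 10.1% and 11.6%). Printed scores give exact ties at 2-fold, and leaving these out gave 34 and 47 (7.34% and 10.2%, against 9.89% and 9.38% of all loci). Without small RNA genes they were 33 and 56 of 457 (7.22% and 12.3%, against 10.1% and 11.5%). Under 5000 bp, 66.5% of control and 65.5% of IL-4 members lay upstream (58.4% and 58% over all distances) and 6.19% and 8.67% past the end on the same strand (11.3% and 13.4%). The shorter limit leaves out more positions past an end by construction. Paired members (15.1% and 22.8%) came to 20.6% and 28.9% within 1000 bp, 11.2% and 18% when pointing away from each other, 8.51% and 15.5% at a score of at least 0.3, and 10.7% and 16% when the partner had to be a member, and IL-4 stayed above control in each, though at a score of at least 0.3 the counting intervals overlapped (5.95 to 12 and 11.3 to 20.9). Loci lower together with their gene numbered 9, against 5 with transcripts overlapping the gene model and 2 over the rounding range, and opposite calls numbered 1, 4 and 0. Within 500 bp, 0 enhancer assays had a transcript in either library. With most scores at 0.1 to 0.3 and unknown depth, a locus called in 1 library cannot be told from one just under the calling limit in the other.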
